A study of Mus musculus with 32 samples.

Results

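Potassium channel genes were taken as all genes of the 3′UTR count table whose symbol is Kcn followed by letters and a number, which gave 89 of the table's 44081 genes. The samples were the soma and the dendrites of 16 single hippocampal neurons, isolated from E18 C57BL/6 mouse embryos and kept in primary culture for 15 days. Each compartment was aspirated separately, which made 32 libraries paired by neuron, all untreated and of 1 strain. Before sequencing, poly(A) RNA went through the aRNA method, an amplification by in vitro transcription, with 3 rounds for neurons 1 to 4 and 2 rounds for neurons 5 to 16. The study collected its neurons from several cultures on more than 1 day, but the labels do not say which embryo or culture each came from. The tests therefore treat the 16 neurons as independent, and their p-values do not account for spread between cultures or animals.

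Potassium channels let K+ leave the cell and so set the resting potential, end the action potential and limit firing. Most are built from 4 pore-forming subunits drawn from 1 family, and auxiliary subunits change their gating and traffic. In hippocampal neurons the families are placed differently along the cell. Kv4 channels carry the A-type current that dampens signals in dendrites, Kv2 channels cluster on the soma and proximal dendrites, and Kv1 and Kv7 channels are best known at the axon. Where the mRNA of each subunit lies is a separate question from where the protein works, and it is the question that the paired libraries address here.

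Reads counted on 3′UTRs numbered 646521 to 6954420 per dendrite library and 925525 to 21169974 per soma library. The reads carry no molecular identifiers, so counts of reads are not counts of molecules. Map2, the microtubule protein whose mRNA marks dendrites, was higher in dendrites (log2 fold change 2.66 ± 0.49 SE, edgeR adjusted p = 0.00202). Gad1, which makes the transmitter of inhibitory neurons, had at least 10 reads in all 16 somas and 16 dendrites. Among other interneuron markers, Gad2 had them in all as well, Pvalb in 12 somas and 13 dendrites, and Sst in 0 of either. The pyramidal marker Slc17a7 had them in 10 somas and 13 dendrites. Camk2a had them in 12 and 13, Grin1 in 14 and 11, and Neurod6 in 8 and 8. Summed, the 6 interneuron markers had a median of 10460 CPM (counts scaled by library size) in somas and 4505 in dendrites. The 4 pyramidal markers had 106 and 203 CPM. Of the 6 astrocyte markers, 4 had reads in at least 8 dendrites and 2 in at least 8 somas. Their summed level lay between 0 and 1675 CPM in dendrites and between 0.541 and 514 in somas. The dendrites of neurons 15 and 16 stood apart, with 1570 and 2485 genes of the whole table at 10 reads or more against 3794 to 9871 in the other dendrites.

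Fewer channel genes reached 10 reads, the minimum taken here as detection, in dendrites than in somas, as was so for genes at large. On average 21.8 ± 9.31 (SD, n = 16) channel genes were detected per dendrite library and 35.9 ± 7.15 (SD, n = 16) per soma library. Dendrite libraries ranged from 2 to 35 with a median of 23, and soma libraries from 24 to 50 with a median of 33.5. The soma had more in 15 of the 16 neurons, and neuron 5 was the exception, where 33 were found in the dendrites against 28 in the soma. Over all genes of the table, 5827 ± 2064 (SD, n = 16) were detected per dendrite library and 9206 ± 1644 (SD, n = 16) per soma library, with the soma higher in the same 15 neurons. The number in the dendrites was 61.8% ± 27.9 (SD, n = 16) of that in the soma for channel genes and 64.9% ± 28.0 (SD, n = 16) for all genes. Dendrites minus soma, the paired difference was -14.1 ± 10.6 genes (SD, n = 16). It was -12.0 ± 9.28 (SD, n = 14) without neurons 15 and 16, and -9.88 ± 9.82 (SD, n = 16) when the deeper library of each neuron was scaled to the reads of the shallower one. Summed over the 89 genes, the level was 2552 ± 1263 CPM (SD, n = 16) in dendrites and 2926 ± 1458 CPM (SD, n = 16) in somas, and the dendrites had the larger sum in 7 of the 16 neurons.

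**Figure D1:**
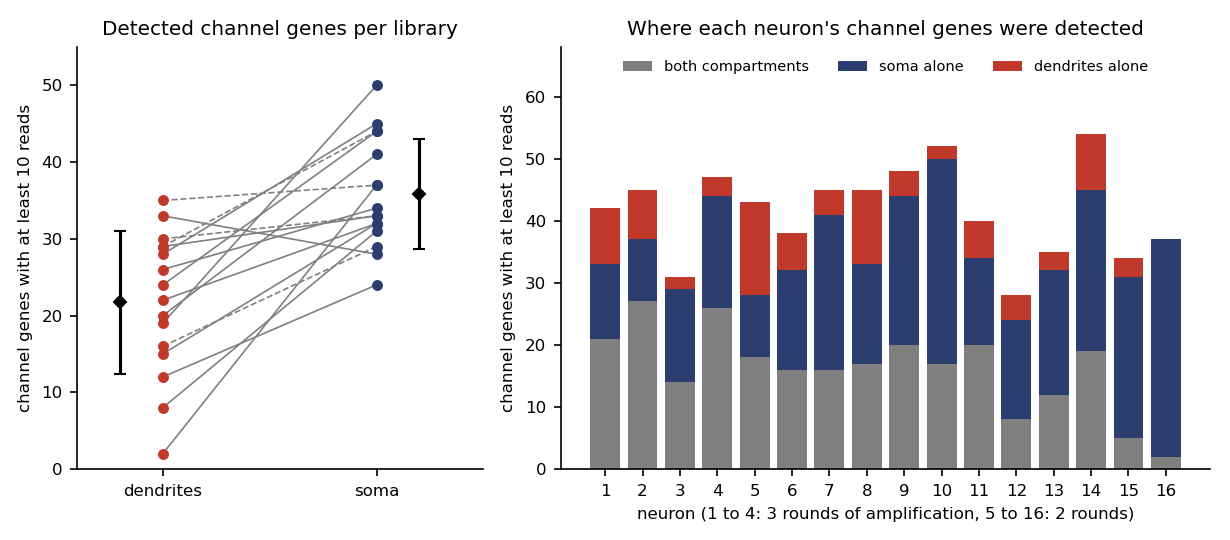
Left, number of potassium channel genes with at least 10 reads in the dendrites and in the soma of each neuron, joined by a line (dashed for 3 rounds of amplification), with the mean and SD of 16 libraries as diamonds. Right, the same genes divided by neuron into those detected in both compartments, in the soma alone or in the dendrites alone. All neurons but neuron 5 had more in the soma, and the dendrites of neuron 16 had 2.

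Divided by neuron, there were on average 16.1 ± 6.80 channel genes (SD, n = 16) shared by both compartments, 19.8 ± 7.67 (SD, n = 16) in the soma alone and 5.63 ± 4.03 (SD, n = 16) in the dendrites alone. Of the genes detected in a dendrite library, the soma of the same neuron had 76.1% ± 12.4 (SD, n = 16), with a range of 54.5% to 100%, and over all genes the share was 76.2% ± 11.0 (SD, n = 16). Neuron 5 had the most genes in its dendrites alone, 15, and neuron 16 had 0.

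By type of subunit, the voltage-gated families Kv1 to Kv4 formed the largest class. They had 6.06 ± 2.98 (SD, n = 16) of their 17 genes detected per dendrite library and 9.88 ± 2.22 (SD, n = 16) per soma library. As given above, the number in the dendrites was 61.8% ± 27.9 (SD, n = 16) of that in the soma over the 89 channel genes. It was 64.9% ± 28.0 (SD, n = 16) over all genes. The 15 inward rectifier genes, whose channels hold the resting potential, had 2.63 ± 1.78 (SD, n = 16) detected in dendrites and 5.19 ± 1.22 (SD, n = 16) in somas. For the 8 genes of the channels opened by calcium or sodium (BK, SK, Slack and Slick) and their relative Slo3, the numbers were 1.88 ± 1.26 and 4.38 ± 1.71 (SD, n = 16 each). The 5 Kv7 genes, which carry the M-current that restrains repetitive firing, had 2.13 ± 0.81 and 2.50 ± 0.89 (SD, n = 16 each). The soma had more Kv7 genes than the dendrites in 8 neurons and fewer in 6.

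Some kinds of channel mRNA were common to every soma. In all 16 somas 7 genes were detected, among them Kcna1, Kcnab2, Kcnd3, Kcnh7, Kcnj3 and Kcnmb2, and 0 of the 89 genes were detected in all 16 dendrites. At least 12 dendrites had 10 reads or more of Kcna1, Kcna2, Kcnab2 and Kcnh7. With a single read as the minimum, 4 genes were present in at least 15 of the 16 dendrites. These were Kcna1 and Kcna2, which encode Kv1 subunits, Kcng3, a silent subunit of the Kv6 family, and Kcnh7, a channel of the ERG family. They were 4 of the 45 channel genes with a read in at least 15 libraries (8.89%), against 16.4% of all 11359 such genes. Kcna1 alone had reads in all 32 libraries, and in exon counts the 4 genes were Kcna1, Kcna2, Kcnc1 and Kcnma1.

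For the comparison of levels, a gene needed 1 read or more in 16 or more libraries and was tested with edgeR, with neuron as a block, and levels are given as CPM after TMM scaling. The test covered 10880 genes, and 43 of the 89 channel genes passed the filter. Of the other 46, 2 (Kcnk4 and Kcnn4) had no 3′UTR read in any library, with 23 and 184 reads in exon counts. None of the 43 was called higher in dendrites at an adjusted p of at most 0.05, where 0.827% of all tested genes were called, and 1, Kcna6, was called higher in somas, where 5.71% of all tested genes were. At an unadjusted p under 0.05 there were 9, of which Kcng3 had its higher level in dendrites and 8 had it in somas, against 30.2% of all tested genes at that level (20.9% of the 43). DESeq2 called 2 of the 43 higher in dendrites (Kcng3 and Kcnq5) and 16 higher in somas, against 4.26% and 46.2% of all tested genes.

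The fold changes of the channel genes sat close to those of the whole transcriptome. The log2 fold change, dendrites over soma, was below 0 in 35 of the 43 channel genes (81.4%) and in 78.8% of all tested genes. The median was -1.13 for the channel genes and -1.49 for all tested genes, and 24 of the 43 lay above the median of all genes. With the dendrites rescaled so that the median gene stood near 0, Kcng3 was called higher in dendrites and no channel gene was called higher in somas, where 5.04% and 0.846% of all tested genes were called. With libraries scaled by the spike-in reads of neurons 3 to 16, the median of all genes was -3.97 and that of the channel genes -3.93. In that scaling 23 of 42 channel genes were called higher in somas and 0 in dendrites, against 62.9% and 0.152% of all genes.

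**Figure D2:**
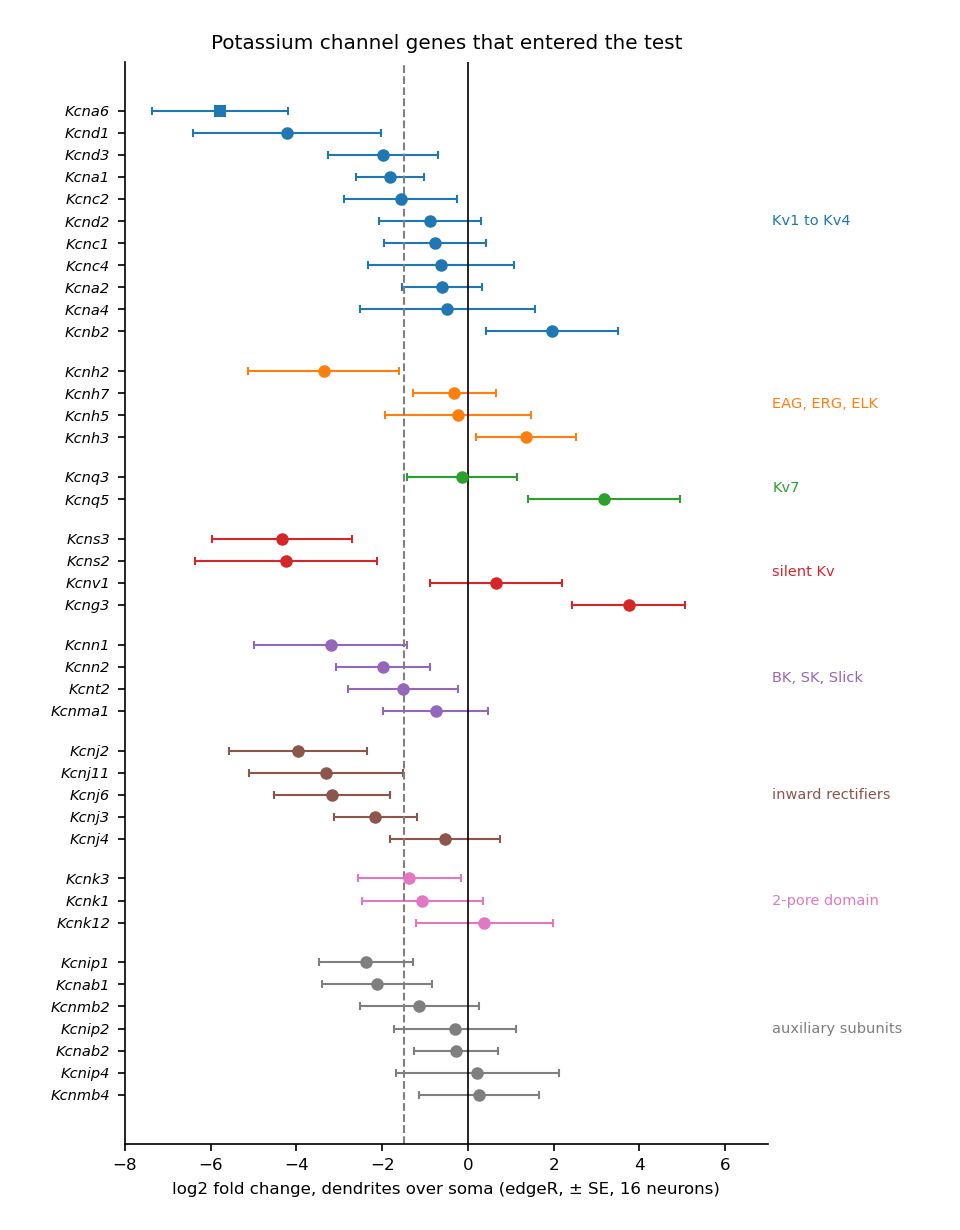
Log2 fold change, dendrites over soma, of 40 of the 43 potassium channel genes that entered the edgeR test, with its SE over 16 neurons, ordered within each type of subunit. The dashed line marks the median of all 10880 tested genes (-1.49), and the square marks Kcna6, the 1 gene past the threshold.

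Among the voltage-gated families, 17 genes were in the table and 13 were tested, with a median log2 fold change of -1.13. Kcna6, a Kv1 subunit on chromosome 6 (GRCm38, 126708329 to 126740674, minus strand), lay mostly in somas. Its level was 0 to 132 CPM in dendrites with a median of 0, and 0 to 212 CPM in somas with a median of 36.1. Reads were found in 6 dendrites and 15 somas, and the soma was higher in 13 of the 16 neurons. In the 3 exceptions, neurons 2, 3 and 5, the dendrites had 100, 1 and 76 reads and the soma 78, 0 and 81. Kcna6 had a log2 fold change of -5.79 ± 1.59 (SE, n = 16 neurons, edgeR adjusted p = 0.0248). The adjusted p was 0.0534 without neuron 12, 0.0714 without neuron 16 and 0.0633 without neurons 15 and 16, and it was 0.0531 in exon counts, with a log2 fold change of -4.68.

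Kcna1 and Kcna2, whose subunits form low-threshold channels together, were found in nearly every library. Kcna1 ran from 0.662 to 1831 CPM in dendrites (median 229) and from 119 to 1597 CPM in somas (median 450). The dendrites of neurons 10, 12, 15 and 16 had only 1 or 2 reads of Kcna1 each, while their somas had 425 to 6990, and the other 12 dendrites had 75 reads or more. Its log2 fold change was -1.81 ± 0.79 (SE, edgeR adjusted p = 0.121), with the soma higher in 12 of 16 neurons. Kcna2 spanned 0 to 515 CPM in dendrites and 0.546 to 496 CPM in somas, and its medians were 121 and 208. For Kcna2 the log2 fold change was -0.61 ± 0.93 (SE, edgeR adjusted p = 0.654), with the soma higher in 9 neurons and the dendrites in 7.

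Kcnc1, the most widely read gene of the Kv3 family, which serves fast spiking, had medians of 54.1 CPM in dendrites and 59.2 CPM in somas with largely overlapping ranges (log2 fold change -0.76 ± 1.19 SE). Kcnd2, the main subunit of the dendritic A-type current, had 0 to 274 CPM in dendrites (median 40.5) and 0.921 to 254 CPM in somas (median 61.4). Its log2 fold change of -0.88 ± 1.19 (SE, edgeR adjusted p = 0.609) was smaller than its error. Kcnb2, a Kv2 gene, had a log2 fold change of 1.96 ± 1.54 (SE, edgeR adjusted p = 0.367). Kcnb2 was higher in the dendrites of 9 neurons and in the soma of 6.

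Silent subunits form no channel by themselves and modify Kv2 channels. The 4 tested of 10 lay at both ends of the range. Kcng3, on chromosome 17 (GRCm38, 83585957 to 83631895, minus strand), had 0.159 to 78.9 CPM in dendrites (median 2.38) and 0 to 49.4 CPM in somas (median 0.219). The dendrites were higher in 13 of 16 neurons and had at least 1 read in all 16, while 10 somas had any. Its log2 fold change of 3.75 ± 1.32 (SE, n = 16, edgeR adjusted p = 0.067) missed the threshold, and an adjusted p under 0.05 was reached without neuron 2 (0.0444) and without neuron 5 (0.0356). Without neurons 15 and 16 it was 0.179.

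The counts behind Kcng3 were low and uneven. In dendrites, 6 libraries had 16 to 220 reads and the other 10 had 1 to 3. The soma of neuron 10 supplied 654 of the 721 soma reads. Exon counts held reads of Kcng3 in 5 dendrites and 2 somas, too few to enter the test there. Kcns3, a Kv9 subunit, was the opposite case, with 0 to 205 CPM in dendrites (median 1.35) and 0 to 172 CPM in somas (median 59.1). Kcns3 was higher in the soma of 13 neurons (log2 fold change -4.33 ± 1.63 SE, edgeR adjusted p = 0.0816; 0.048 without neuron 2). Kcnv1, the Kv8 example, had 0 to 303 CPM in dendrites and 0 to 84.8 CPM in somas, with each compartment higher in 7 neurons. Kcnf1, the single Kv5 gene, had reads in 3 dendrites and 2 somas and was not tested.

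**Figure D3:**
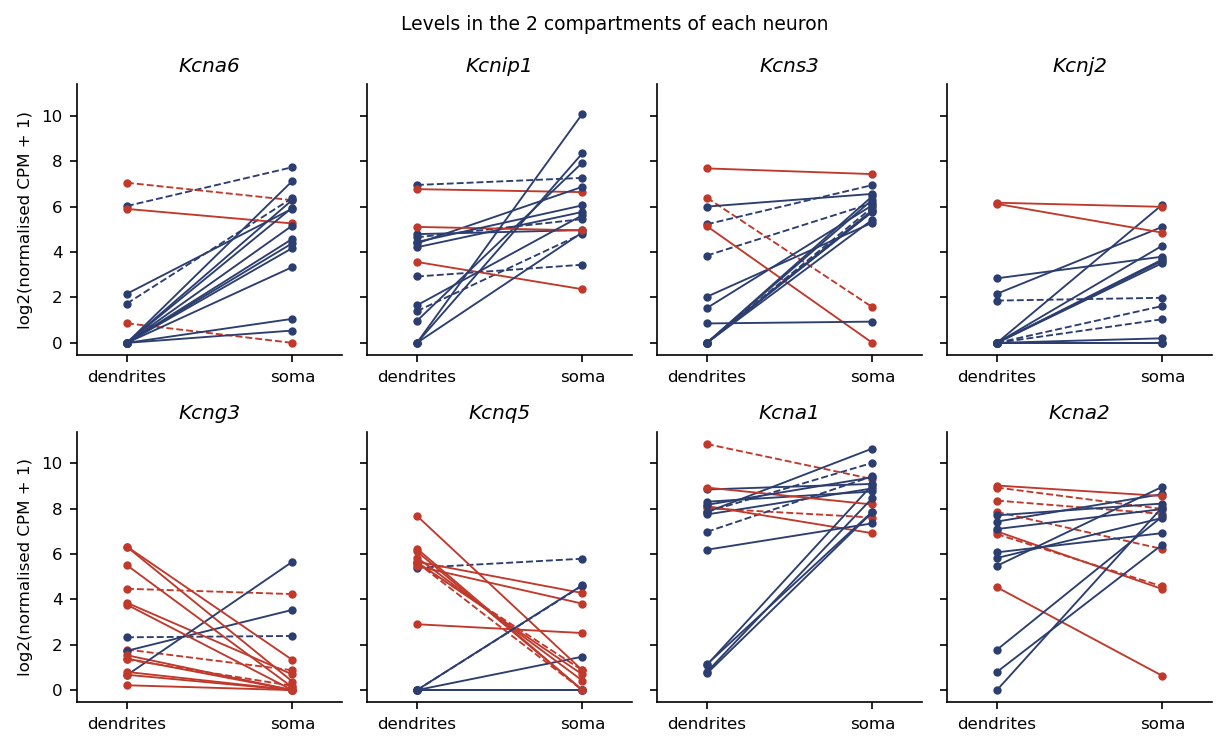
Level of 8 potassium channel genes in the dendrites and soma of each neuron, as log2(CPM + 1) after TMM scaling, joined by neuron (dashed for 3 rounds of amplification, red where the dendrites were higher, blue where the soma was higher or both were 0). Kcna6 was higher in 13 somas and Kcng3 in 13 dendrites, and Kcna1 was close to 0 in the dendrites of 4 neurons.

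Of the Kv7 genes, Kcnq5, on chromosome 1 (GRCm38, 21398403 to 21961942, minus strand), had 0 to 204 CPM in dendrites with a median of 45.2, and 0 to 54.3 CPM in somas with a median of 0.832. It was higher in the dendrites of 10 neurons and in the soma of 4, and neurons 9 and 12 had no read in either compartment. Its log2 fold change was 3.17 ± 1.78 (SE, edgeR adjusted p = 0.211). Kcnq3, a subunit of M-channels, had a log2 fold change of -0.14 ± 1.28 (SE, edgeR adjusted p = 0.95).

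In the EAG, ERG and ELK group, 4 of 8 genes were tested and their log2 fold changes ran from -3.36 for Kcnh2 to 1.35 for Kcnh3. Kcnh7 had 0 to 384 CPM in dendrites (median 82.2) and 25.7 to 372 CPM in somas (median 75.2), with each compartment higher in 8 neurons. Its log2 fold change was -0.32 ± 0.96 (SE, edgeR adjusted p = 0.831), and -1.81 ± 1.46 (SE) in exon counts. Kcnh3, an ELK channel gene, had 0 to 926 CPM in dendrites and 0 to 141 CPM in somas, with the dendrites higher in 9 neurons and the soma in 4 (log2 fold change 1.35 ± 1.17 SE, edgeR adjusted p = 0.416). Kcnh5, an EAG channel gene chosen here after its values were seen, was the 1 channel gene called in exon counts, with a log2 fold change of 4.40 toward dendrites, against -0.24 ± 1.70 (SE) on 3′UTR counts. It had 156 reads on 3′UTRs and 289 on exons in dendrites, and 2918 and 16 in somas.

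All 5 tested inward rectifiers of 15 had a fold change below 0, with a median log2 fold change of -3.17. None passed the threshold and 3 had an unadjusted edgeR p under 0.05. Over all tested genes the median was -1.49, and 78.8% had a fold change below 0. Of all tested genes, 5.71% were called higher in somas and 30.2% had an unadjusted edgeR p under 0.05. Kcnj2, a strong inward rectifier, had 0 to 71.2 CPM in dendrites (median 0) and 0 to 67.1 CPM in somas (median 10.8). Its log2 fold change was -3.96 ± 1.61 (SE, edgeR adjusted p = 0.102), with reads in 5 dendrites and 13 somas. Kcnj3 and Kcnj6 encode subunits of the channels that G proteins open. Kcnj6 ran from 0 to 72.2 CPM in dendrites (median 2.26) and from 2.11 to 209 CPM in somas (median 26.8), with a log2 fold change of -3.17 ± 1.36 (SE, edgeR adjusted p = 0.114). Kcnj3 ran from 0 to 184 CPM in dendrites (median 77.8) and from 61.5 to 475 CPM in somas (median 134), with a log2 fold change of -2.15 ± 0.97 (SE, edgeR adjusted p = 0.129). Each of the pair was higher in the soma of 12 neurons. In exon counts Kcnj6 had a log2 fold change of 0.62, and its exon reads came to 8.24% of its 3′UTR reads.

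Among the channels opened by calcium or sodium, Kcnma1, the BK channel gene, had medians of 60.2 CPM in dendrites and 53.7 CPM in somas, with each compartment higher in 8 neurons (log2 fold change -0.75 ± 1.22 SE). Kcnn2, an SK channel gene, had medians of 6.18 and 30.4 CPM and was higher in the soma of 13 neurons (log2 fold change -1.98 ± 1.10 SE, edgeR adjusted p = 0.209). Kcnt2, the Slick gene, had a log2 fold change of -1.51 ± 1.29 (SE), and of 2.58 ± 1.63 (SE) in exon counts. Among the K2P leak channels, 3 of 12 genes were tested, and Kcnk1 had 0 to 261 CPM in dendrites and 0 to 438 CPM in somas (log2 fold change -1.07 ± 1.41 SE). Kcnu1, which encodes Slo3, had reads in 5 dendrites and 10 somas and was not tested.

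Auxiliary subunits had 7 of 14 genes tested, with a median log2 fold change of -0.30. Kcnip1, a calcium-binding partner of Kv4, had 0 to 123 CPM in dendrites (median 14.2) and 4.15 to 1090 CPM in somas (median 50.8). It was higher in the soma of 13 neurons, with a log2 fold change of -2.37 ± 1.10 (SE, edgeR adjusted p = 0.139). Kcnab2, a cytoplasmic subunit of Kv1 channels, had 0 to 331 CPM in dendrites and 6.00 to 158 CPM in somas, and its log2 fold change of -0.28 ± 0.98 (SE) was within its error. Kcnmb2, a BK subunit, had medians of 4.99 and 21.7 CPM and a higher level in each compartment in 8 neurons. None of the 4 MinK-related genes was tested, and Kcne1 had reads in 2 dendrites and 1 soma.

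Single neurons departed widely from these means. For the 43 tested channel genes, the share of a neuron's CPM that lay in its dendrites was taken wherever the neuron had at least 10 reads of the gene, which gave 560 pairs of gene and neuron. The share was under 0.1 in 215 pairs (38.4%), over 0.9 in 72 (12.9%) and between in 273 (48.8%). Over all tested genes these parts were 37.8%, 9.69% and 52.5%. For Kcna6 the share was under 0.1 in 11 of 14 neurons, for Kcns2 in 8 of 11 and for Kcnd1 in 8 of 10. For Kcnq5 it was over 0.9 in 7 of 13 neurons and for Kcng3 in 5 of 9.

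**Figure D4:**
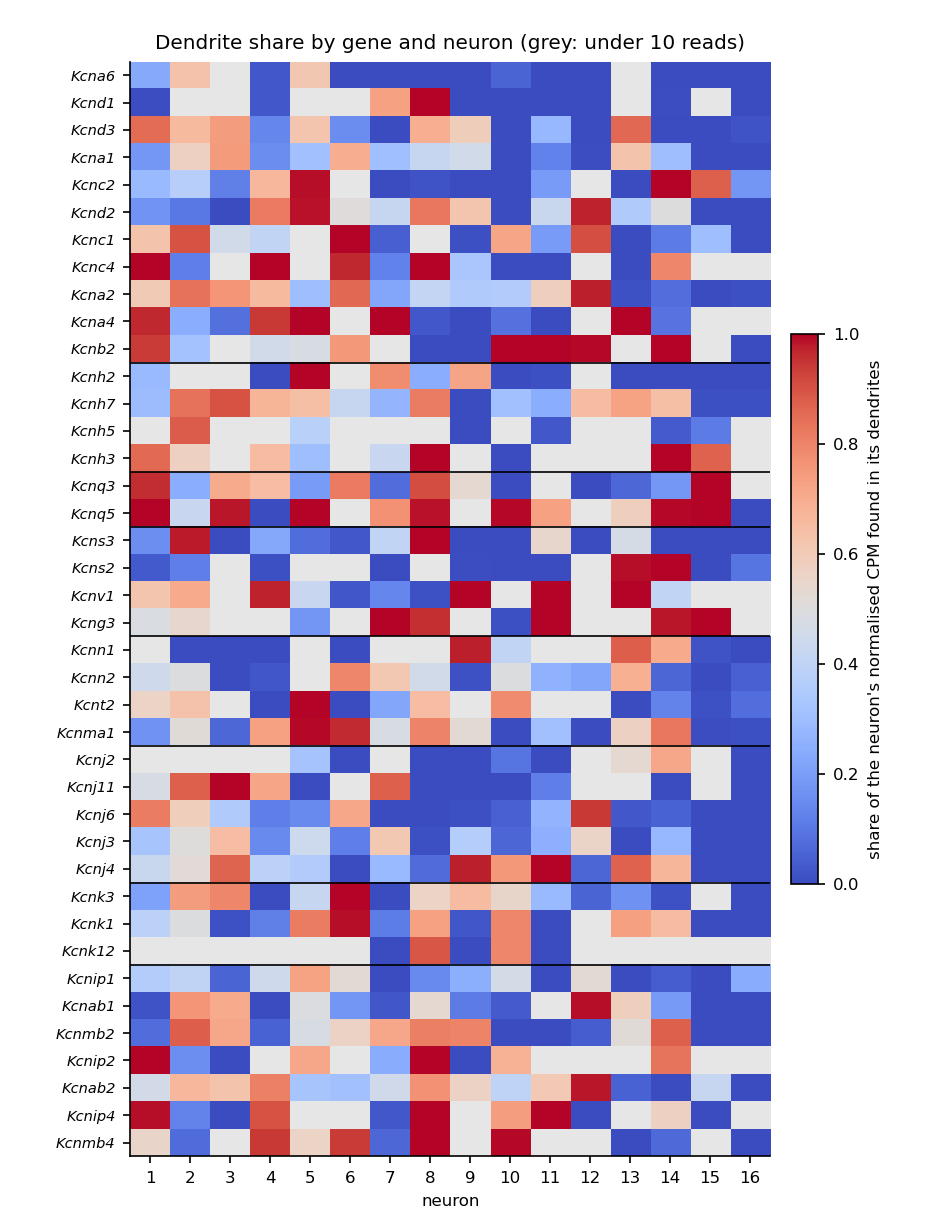
Share of a neuron's normalised CPM found in its dendrites, for 40 of the 43 tested potassium channel genes (rows, grouped by type of subunit as in the plot of fold changes) and neuron (columns), from 0 (blue, all in the soma) to 1 (red, all in the dendrites). Of the 519 plotted pairs with at least 10 reads, 196 lie under 0.1 and 71 over 0.9, and the columns of neurons 15 and 16 are mostly blue.

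The effect of compartment was also set side by side in neurons of 2 and of 3 rounds of amplification. Kcna6 had a log2 fold change of -8.53 in the 12 neurons of 2 rounds and -0.92 in the 4 of 3 rounds, and for Kcng3 the values were 5.22 and 1.16. In the edgeR test of the difference itself, 0 of the 43 genes passed and 2 had an unadjusted p under 0.05, against 0% called and 2.65% at that level among all 10880 genes. DESeq2 called 0 channel genes in the same test, with 5 under 0.05, against 0.404% and 10.4% of all genes. The 2 genes were Kcnj11, the pore of the channel closed by ATP, and Kcna6, with differences of 9.06 ± 2.97 and 7.50 ± 2.94 on the log2 scale (SE, edgeR p = 0.00376 and 0.0138, adjusted p = 1 for both).

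The proteins that work with these channels were taken as a further list of 17 genes, of which 11 were tested. None was called higher in dendrites and 1 was called higher in somas, with 4 at an unadjusted p under 0.05, against 5.71% called higher in somas and 30.2% at that level among all tested genes. Their median log2 fold change was -2.06, and that of all genes -1.49. Akap5, a scaffold that brings kinases to Kv7 and other channels, had 0 to 156 CPM in dendrites (median 1.01) and 11.8 to 377 CPM in somas (median 168). It was higher in the soma of 14 neurons, with a log2 fold change of -6.13 ± 1.36 (SE, edgeR adjusted p = 0.0117). Amigo1, an auxiliary protein of Kv2, had a log2 fold change of -3.94 ± 1.40 (SE, edgeR adjusted p = 0.0689), and Vapa, which ties Kv2 clusters to the endoplasmic reticulum, had one of -2.06 ± 0.78 (SE, edgeR adjusted p = 0.0816). The Kv4 partners Dpp6 and Dpp10 had log2 fold changes of -2.19 ± 1.18 and -2.52 ± 1.23 (SE).

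Use of alternative 3′ ends could be compared for 12 of the 89 genes, those whose top 2 ends held 10 or more reads in the soma and in the dendrites of 5 or more neurons. The exact signed-rank test gave p under 0.1 for 1 of the 12, against 8.4% of the 3522 genes tested (two-sided). After adjustment 0 of the 12 passed. In 7 of the 12, too few neurons had unequal shares for the test to reach p under 0.1.

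Kcnj4, an inward rectifier, was read on different ends in different neurons. The ends of a gene carry numbers in the files but no positions. In neurons 1 to 4 the lower-numbered end of Kcnj4 took 79.6% to 98.8% of the dendrite reads and 65.6% to 79.5% of the soma reads. In neurons 9, 10, 12, 13 and 14 that end had 0 reads in either compartment, with 16 to 264 reads on the other end in dendrites and 23 to 285 in somas. The first group had 3 rounds of amplification and the second 2. Among other somas of 2 rounds, those of neurons 6, 7, 8 and 16 had 56, 12, 57 and 385 reads on the lower-numbered end. The somas of neurons 5 and 15 had 0 there, with 10 and 223 on the other end. A link to the rounds was not tested. The paired difference was 8.78 ± 13.4 percentage points (SD, n = 9), higher in the dendrites of 4 neurons and equal in 5. With 4 untied pairs, the exact two-sided signed-rank test gave 0.125, the smallest p it could give. Kcnma1 spread its reads over both of its ends, with the lower-numbered end higher in the dendrites of 5 neurons and in the soma of 3 (exact signed-rank p = 0.313, two-sided, n = 8).

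**Figure D5:**
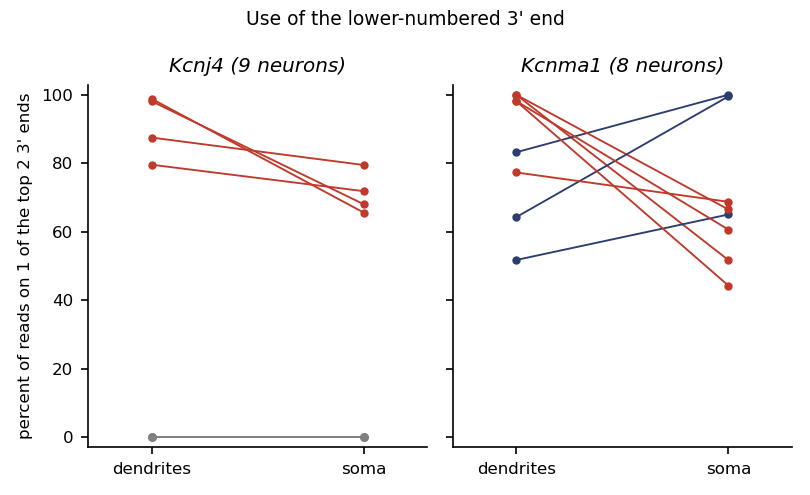
Percentage of the reads on the top 2 3′ ends that fell on the lower-numbered end, in the dendrites and soma of each neuron, for Kcnj4 and Kcnma1 (red where the dendrites were higher, blue where the soma was, grey where they were equal). For Kcnj4, 5 neurons sit at 0 in both compartments.

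The region counted mattered for some genes. Exon reads came within 10% of 3′UTR reads in 25 of the 43 tested channel genes, Kcna6 among them, and to under 20% in 8 (Kcnb2, Kcnd1, Kcng3, Kcnh5, Kcnh7, Kcnj3, Kcnj6 and Kcnq3). Kcnd1, a Kv4 gene, had 7342 reads on 3′UTRs and 4 on exons. The authors' 3′UTR regions joined several annotations. Whether the 3′UTR reads of these 8 genes all belong to them could not be checked here, which limits what their levels and fold changes measure.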

How the data were processed

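Reads of the 32 libraries were trimmed and aligned to mm10 by the authors with STAR (2.4.0 in the submitters' notes), and uniquely mapped reads were counted by strand with VERSE. The deposited values are raw counts on the union of the 3′UTRs of 44081 genes, on single 3′ ends, and on exons of 23453 genes with 92 ERCC spike-ins (none was added to neurons 1 and 2 per the labels). Genes with at least 1 read in 16 libraries were tested with edgeR 4.0.16 (TMM, robust quasi-likelihood, neuron as block) in R 4.3.3, with Benjamini-Hochberg adjustment over all 10880 genes. The SE was the log2 fold change divided by the square root of the F statistic. DESeq2 1.42.0 was an alternative. Tables were made with Python, pandas 2.3.3 and SciPy 1.17.1. The edgeR and isoform tests were run on simulated data with 200 changed genes. With a change of 4 on the log2 scale, edgeR called 69 of the 200, and 1 other gene among the 9999 it tested. The isoform test at p under 0.1 called 198 of its 200 shifted genes and 286 of 3322 others. The simulated isoform shares lay in the middle range, unlike those of most channel genes.

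Both compartments of a neuron came from that cell, so libraries were paired by neuron. As a check, deviations from compartment means were correlated between dendrites and soma, with r = 0.0833 ± 0.0763 (SD, n = 16) within a neuron and r = -0.00506 ± 0.0534 (SD, n = 240) between neurons. The ends of a gene are numbered without coordinates in the files, so the lower-numbered of the top 2 was followed in place of the distal one. Gene positions come from GENCODE vM21 on GRCm38, which matched all 89 symbols. The genes named were those called, the 5 with the smallest p in each direction, those in at least 15 dendrites, those passing the isoform test, 6 that the study lists among dendritic RNAs, and the most widely read gene of each family, beside the partner list. Kcnd1, Kcnh2, Kcnh5, Kcnj4, Kcnj11, Kcnq3 and Kcns2 were named after their values were seen. The values of 3 channel genes are not reported here and are left out of the plots, although counts and medians over the channel genes include them. The members and lists were chosen with earlier results of these data known. No pair of libraries held identical counts.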

Additional observations from a re-analysis of the deposited data

How the results depend on the processing

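Kcna6 kept a log2 fold change below 0 under every alternative and lost its call under 8 of them. Higher in dendrites, 0 channel genes were called as reported, 2 by DESeq2, 1 with dendrites rescaled to the median gene, and 1 in exon counts (Kcnh5). Leaving out single neurons gave 0 to 1 (1 without neurons 2 or 5). Of all 10880 tested genes, 90 were called higher in dendrites as reported, 463 by DESeq2 and 548 with rescaled dendrites. The number was 98 of 9804 in exon counts, 113 of 10648 without neuron 2 and 85 of 10826 without neuron 5. Higher in somas, 1 channel gene was called as reported, 16 by DESeq2 and 7 by an exact sign-flip test on log2(CPM + 1). With RLE scaling 2 were called, and with spike-in scaling 23. None was called with rescaled dendrites, with no filter beyond 1 read, in exon counts, with 3 rounds alone, or without neurons 15 and 16. Of all 10880 tested genes, 621 were called higher in somas as reported, 5029 by DESeq2, 2144 by sign flips and 1008 with RLE scaling. The number was 6629 of 10537 with spike-in scaling and 92 of 10880 with rescaled dendrites. It was 143 of 31102 with no filter and 257 of 9804 in exon counts. With 3 rounds alone it was 1 of 13186, and without neurons 15 and 16, 190 of 11309. Left out singly, neurons gave 0 to 2 channel genes (2 without neuron 2, 0 without neurons 12 or 16). Without the block that pairs the compartments of a neuron, 0 were called in either direction. The median of the channel genes minus that of all genes, 0.37 as reported, lay between -0.32 (no filter) and 0.58 (without neuron 16).

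With 1 read as detection, 36.9 channel genes were found per dendrite library and 45.5 per soma library. Reads in all 16 dendrites left 2 genes, and 10 reads in 15 dendrites left 0. The isoform count fell to 0 with 20 reads, with 2 rounds alone, and at an adjusted p of at most 0.05. Among the 28 named genes and partners with a fold change, 746 of 834 alternatives kept direction and side of the threshold, 42 gained a call, 10 lost one, and 36 turned the sign of a value that was not called. Scaling with totals over all genes, and leaving out neurons 15 and 16 together, were chosen after seeing the data. The errors of the tested channel genes ran from 0.79 to 2.19 on the log2 scale. Power at their fold changes was not computed, so a gene that was not called is not shown to be equal in both compartments.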

Other observations

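Among the 46 channel genes outside the test, a few had 3′UTR reads mostly in 1 compartment. Kcnt1, the Slack gene, had 1240 reads in 8 somas and 13 in 3 dendrites, and Kcnab3, a Kv1 beta subunit, had 2490 reads in 10 somas and 178 in 3 dendrites. In the other direction, Kcnk18 had 174 reads in 4 dendrites and 1 in the somas, and Kcne1 had 99 in 2 dendrites and 1 in the somas. On 3′UTRs, reads were found only in dendrites for 4 genes (Kcna7, Kcna10, Kcnj1 and Kcnq1) and only in somas for 5 (Kcna3, Kcne2, Kcne3, Kcnh4 and Kcnk13). Each of these 9 had 3′UTR reads in 1 or 2 libraries, and in exon counts 6 of them also had reads in the other compartment. A gene with reads in 1 library can only lie in 1 compartment. The share of all genes read in 1 compartment alone was not computed, so these lists are no result about channel genes. These genes were named after their values were seen, and none was tested.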
